A study of Mus musculus with 6 samples.

Results

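Bipolar cells carry the signal of rods and cones to the ganglion cells of the retina, and 10 genes for their glutamate signalling and their fate were followed here in knockout and wildtype mouse retinae. The genes were Grm6, Trpm1, Gnao1, Gng13, Pcp2, Prkca, Cabp5, Vsx1, Irx5 and Isl1. All probe sets that the platform annotation assigns to these symbols were taken, which gave 18 of the 22626 probe sets that are not controls, for 9 of the 10 genes. No probe set was named Grm6 in the annotation used, so the mGluR6 receptor itself was not analysed here. Of the 18 probe sets, 13 had a mean signal above the 40th percentile of all probe sets and were tested, and 5 lay below it. The study hybridised total RNA from retinae at postnatal day 7 to 6 Affymetrix arrays. The wildtype group held 3 arrays of C57BL/6 mice, and the knockout group held 3 arrays of C57BL/6 mice lacking the retinoschisin gene Rs1h (Rs1h-/Y in the design text). Retinoschisin is an adhesion protein secreted in the retina. The labels do not say if RNA was pooled over animals, so the p-values reflect only how these samples vary, and some of that variation may be technical.

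In darkness, photoreceptors release glutamate onto bipolar dendrites. ON bipolar cells sense it with the receptor mGluR6, encoded by Grm6, which through the G protein Go holds the cation channel TRPM1 closed. When light stops the release, the channel opens and the cell depolarises. Bipolar cells are among the last retinal neurons to be born in the mouse, and their synapses are still forming in the first postnatal weeks. Because whole retina was used, fewer bipolar cells and less RNA per bipolar cell cannot be told apart in any value below.

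The deposited signals were scaled so that each array had the same trimmed mean, and the word signal below means this scaled intensity. Before scaling, the trimmed means ranged from 171 to 312. The photoreceptor genes Sag and Nrl, which mark the tissue as retina, had wildtype signals of 7625 ± 272 and 6475 ± 488 and knockout signals of 6717 ± 462 and 5820 ± 469 (SD, n = 3). For Sag the knockout arrays all lay below the wildtype arrays, as in 5.05% of all tested probe sets, and for Nrl the groups overlapped. Knockout array 1 stood apart, with correlations of 0.956 to 0.965 to the other arrays against 0.974 to 0.985 among the other 5. The labels were not checked against the targeted gene, whose probe sets were not analysed here. With 3 arrays a group, precision is limited throughout.

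No tested bipolar probe set passed the test between knockout and wildtype retinae, and most had overlapping groups. With limma and Benjamini-Hochberg adjustment over all 13575 probe sets tested, 0 of the 13 had an adjusted p under 0.05, where 0.0147% of all probe sets did. The smallest adjusted p among the 13 was 0.999. At an unadjusted p under 0.05 the count was also 0 of 13, where 3.82% of all probe sets passed. In 8 of the 17 alternative settings 1 member reached that level. It was Gng13 in 6 of them, and in the other two a Vsx1 probe set or the dim Pcp2 probe set. The lowest adjusted p of any member in these settings was 0.63. Positive log2 fold changes (knockout minus wildtype) were found for 6 of the 13 and negative ones for 7, and over all probe sets 50.1% were positive and 49.9% negative. Their median was -0.00012, and that of all probe sets was 0.00031. In 1 of the 13, Gng13, the knockout arrays all lay above the wildtype arrays, as they did in 4.05% of all probe sets, and in 0 of the 13 they all lay below, against 5.05%.

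The intervals show which sizes of change these arrays could still hold. For 12 of the 13 the 95% interval lay wholly within 2-fold in either direction, as it did for 90.8% of all tested probe sets, and the exception was a Cabp5 probe set. For 8 of the 13 it lay within 1.5-fold, and over all tested probe sets 50.4% did. These intervals are per probe set and are not adjusted for the number of probe sets. They belong to the reported fit, in which the constant added before log2 shrinks changes of dim probe sets. The Gng13 interval ended at 1.93-fold, close to the limit. Its log2 fold change of 0.46 was 0.51 with a lower constant, 0.55 with quantile normalization and 0.54 with median scaling. Counts of intervals within 2-fold were not made for those settings.

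**Figure D1:**
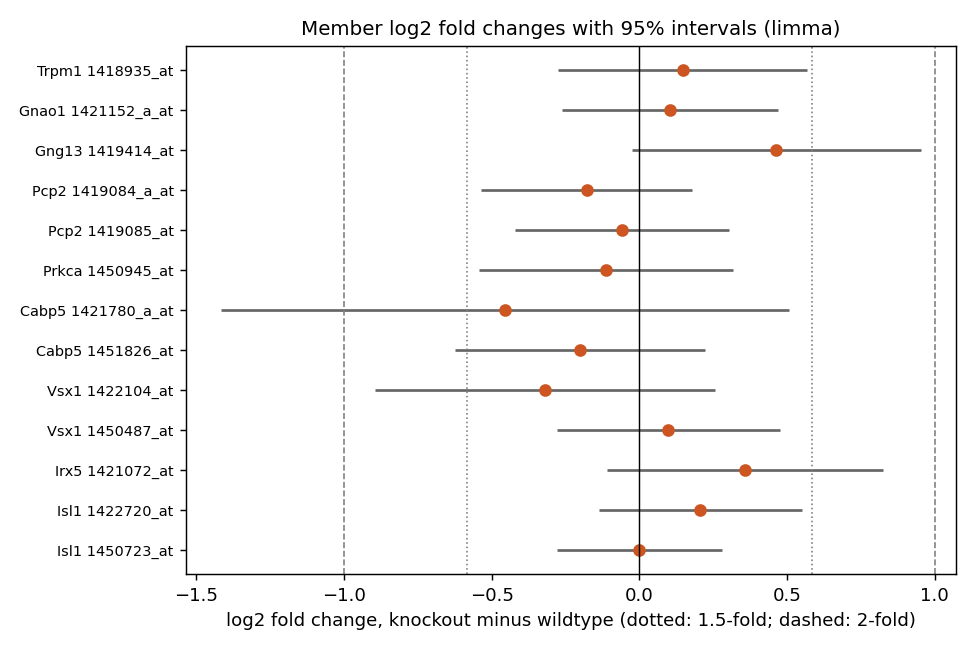
Log2 fold change, knockout minus wildtype, of the 13 tested bipolar probe sets (points) with their 95% intervals from limma (lines); dotted lines mark 1.5-fold and dashed lines 2-fold. All 13 intervals include 0, and only the upper Cabp5 interval runs past a 2-fold line.

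Of the ON cascade, Trpm1 encodes the cation channel that opens when mGluR6 falls silent. Its tested probe set, 1418935_at, had signals of 91.6, 77.2 and 82.0 on wildtype arrays 1 to 3, and 95.5, 82.1 and 106.9 on knockout arrays 1 to 3, the order used for all values below. The groups overlapped, and knockout array 3 was the highest. The log2 fold change was 0.15 ± 0.19 (SE; 95% interval -0.27 to 0.57). The second Trpm1 probe set, 1437531_at, stayed between 4.36 and 17.6 on all arrays and was not tested.

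Gnao1 encodes the alpha subunit of Go, which is present in many neurons and not in bipolar cells alone. Its bright probe set, 1421152_a_at, had 1696, 1257 and 1713 in wildtype and 1457, 1879 and 1659 in knockout. Wildtype array 2 was the lowest and knockout array 2 the highest, so the ranges crossed. On the log2 scale the fold change was 0.10 ± 0.16 (SE; 95% interval -0.26 to 0.47). The other two Gnao1 probe sets, 1448031_at and 1460383_at, were below the filter, with wildtype means of 10.5 and 50.6 and knockout means of 10.4 and 50.1.

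Gng13 encodes a G protein gamma subunit that partners Go in ON bipolar cells. Its single probe set, 1419414_at, gave 89.9, 80.7 and 110.9 on the wildtype and 181, 114 and 120.2 on the knockout arrays. Knockout array 1 was far above the rest, while the other two knockout arrays lay just above wildtype array 3. The log2 fold change was 0.46 ± 0.22 (SE; 95% interval -0.03 to 0.95), a 1.38-fold higher fitted level, and it missed the threshold (limma adjusted p = 0.999). Without knockout array 1 it was 0.28. This was the highest positive value among the 13 tested.

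**Figure D2:**
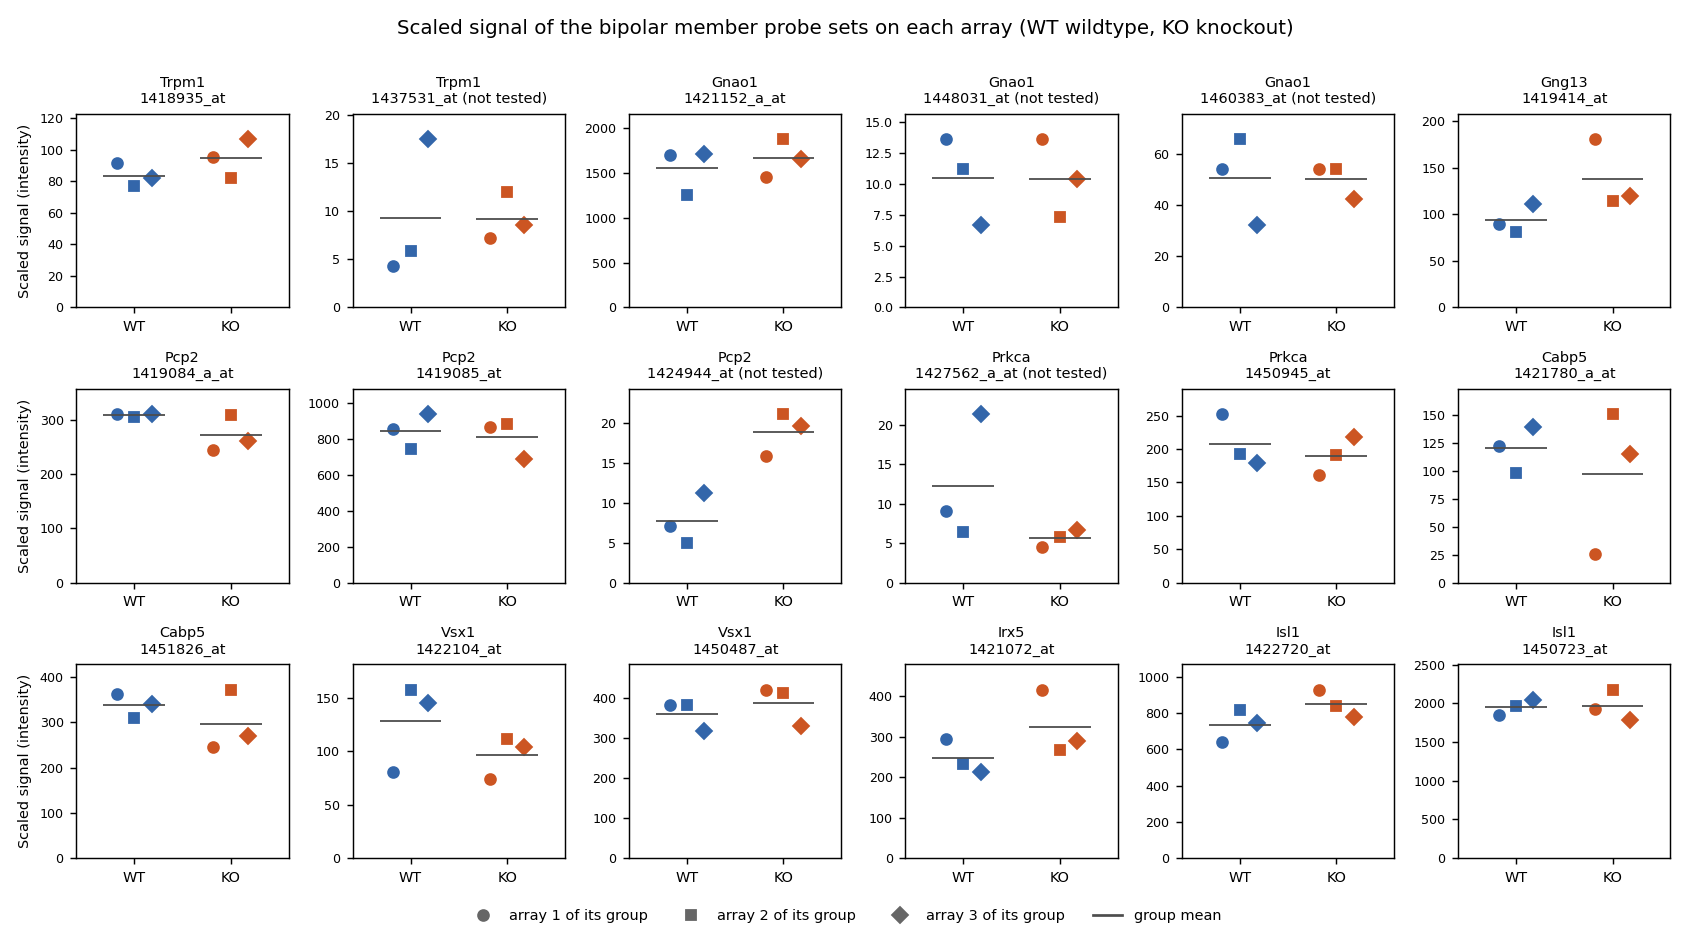
Scaled signal (intensity) of all 18 bipolar probe sets on each array, 1 panel per probe set, with 3 wildtype (WT, blue) and 3 knockout (KO, orange) arrays; marker shapes give the array number within its group and lines the group means. For Gng13 the knockout arrays sit at 114 to 181 and the wildtype arrays at 80.7 to 110.9; most other panels overlap.

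Pcp2 encodes a GoLoco protein that binds Go and, within the retina, is a marker of bipolar cells. Probe set 1419084_a_at had 309.9, 304 and 309.6 in wildtype and 244, 309.0 and 260.3 in knockout. The wildtype arrays were nearly equal, and knockout arrays 1 and 3 lay below them while knockout array 2 lay among them. The log2 fold change was -0.18 ± 0.16 (SE; 95% interval -0.54 to 0.18). Probe set 1419085_at had 858, 743 and 940.2 in wildtype and 869, 884 and 690.4 in knockout, with overlapping groups and a log2 fold change of -0.06 ± 0.16. The third Pcp2 probe set, 1424944_at, was dim and below the filter, with 7.09, 5.03 and 11.2 in wildtype and 15.9, 21.1 and 19.6 in knockout. There the knockout arrays were all above the wildtype arrays, the opposite sign to the 2 brighter Pcp2 probe sets. With no filter its log2 fold change was 0.50, with an unadjusted limma p of 0.0066 and an adjusted p of 0.999.

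Prkca encodes protein kinase C alpha, the classical marker of rod bipolar cells, which also acts on the light response of these cells. Probe set 1450945_at gave 252, 192 and 179 on the wildtype and 162, 191 and 218 on the knockout arrays. The groups overlapped, with the extremes on wildtype array 1 and knockout array 1. This gave a log2 fold change of -0.11 ± 0.19 (SE; 95% interval -0.54 to 0.32). The other Prkca probe set, 1427562_a_at, was below the filter, at 9.04, 6.45 and 21.3 in wildtype and 4.55, 5.83 and 6.67 in knockout.

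Cabp5 encodes a calcium-binding protein of rod bipolar and some cone bipolar cells. Probe set 1451826_at had 364, 310.3 and 341 in wildtype and 246, 373 and 269 in knockout, a log2 fold change of -0.20 ± 0.19 (SE; 95% interval -0.62 to 0.22). Knockout arrays 1 and 3 lay below the wildtype range and knockout array 2 above it. Probe set 1421780_a_at had 122, 98.6 and 139.7 in wildtype and 25.9, 151 and 115 in knockout. Here knockout array 1 was far below all others, and the remaining arrays overlapped. Its log2 fold change came to -0.45 ± 0.43 (SE; 95% interval -1.42 to 0.51), with the widest interval of the 13, and it was 0.13 without knockout array 1. Knockout array 1 was the lowest in both Cabp5 probe sets.

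The transcription factor Vsx1 is needed for the maturation of OFF cone bipolar cells. Its probe set 1422104_at gave 80.8, 158 and 146 on the wildtype and 74.1, 111 and 104 on the knockout arrays. Wildtype array 1 fell among the knockout arrays, and the log2 fold change was -0.32 ± 0.26 (SE; 95% interval -0.90 to 0.25). Dropping wildtype array 1 gave -0.58, while dropping either wildtype array 2 or knockout array 1 gave -0.17. The brighter probe set, 1450487_at, had 384, 383 and 319 in wildtype and 422, 414 and 332 in knockout, with a log2 fold change of 0.10 ± 0.17 (95% interval -0.28 to 0.48). The 2 Vsx1 probe sets thus had opposite signs, both with intervals that include 0.

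Irx5, an Iroquois homeobox factor of cone bipolar cells with 1 probe set, 1421072_at, gave 294, 232 and 213 on the wildtype and 416, 267 and 288 on the knockout arrays. Knockout array 1 was the highest, and wildtype array 1 lay above the other two knockout arrays. The log2 fold change was 0.36 ± 0.21 (SE; 95% interval -0.11 to 0.83; limma adjusted p = 0.999). Without knockout array 1 it was 0.17.

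Isl1 encodes a LIM homeobox factor of ON bipolar cells that ganglion cells and cholinergic amacrine cells also express. Its bright probe set, 1450723_at, had 1854, 1970.0 and 2045 in wildtype and 1924, 2179 and 1780.4 in knockout. The group means were 1956 ± 96.1 and 1961 ± 202 (SD, n = 3), and the log2 fold change was -0.00012 ± 0.12 (SE; 95% interval -0.28 to 0.28). The highest and the lowest signal were both on knockout arrays. Probe set 1422720_at had 643, 820.0 and 747 in wildtype and 931, 839 and 782 in knockout, with a log2 fold change of 0.21 ± 0.15 (95% interval -0.14 to 0.55). Wildtype array 2 lay above knockout array 3 there, so these groups overlapped too.

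The homeodomain factors OTX2 and CRX bind the core motif GGATTA near many photoreceptor and bipolar genes, and the regulator Otx2 is among the factors described below. RefSeq start-site windows (GRCm38.p6) were read to show which members carry these letters. Windows from 250 bases before to 50 after a start were found for 9 of the 10 genes, 14 windows in all. Irx5 had none. On either strand, GGATTA was in 3 of the 14 windows, 1 each of Trpm1, Cabp5 and Isl1, and in 7.06% of the 32851 windows of all genes. The stretches around the motif are printed below, 5′ to 3′ along the gene, with the motif (GGATTA or its reverse complement TAATCC) in capitals. A match describes the letters only, and these data hold no binding measurement.
Trpm1, chr7:64153771-64153834, + strand: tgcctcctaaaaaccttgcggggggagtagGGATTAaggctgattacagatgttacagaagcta
Cabp5, chr7:13397965-13398149, + strand: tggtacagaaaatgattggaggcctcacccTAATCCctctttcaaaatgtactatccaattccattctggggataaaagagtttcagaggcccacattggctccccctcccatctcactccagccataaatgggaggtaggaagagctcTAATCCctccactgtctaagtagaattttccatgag
Isl1, chr13:116309830-116309895, - strand: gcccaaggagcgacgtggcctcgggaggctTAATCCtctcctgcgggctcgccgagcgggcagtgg
The motif begins 34 bases before the start in Trpm1, 160 and 41 bases before it in Cabp5, and 177 bases before it in Isl1. The Cabp5 window belongs to a start inside the annotated gene, which spans chr7:13385960-13408887. The tested probe sets of these 3 genes had log2 fold changes of 0.15 for Trpm1, -0.45 and -0.20 for Cabp5, and 0.21 and -0.00012 for Isl1. They did not share a sign, none of them passed the limma test, and a link with the motif was not tested.

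Knockout array 1, the array that stood apart, held the highest or the lowest of the 6 signals in 9 of the 13 tested bipolar probe sets (69.2%). It did so in 53.5% of all tested probe sets, so this array was often at an extreme in the whole table too. It was the highest for Gng13, Irx5, 1 Vsx1 and 1 Isl1 probe set, and the lowest for both Cabp5 probe sets and for 1 probe set each of Pcp2, Prkca and Vsx1. Of 12 marker lists of other cells, the summed signal was at an extreme on this array for 4, lowest for rod and highest for progenitor, microglia and pigment epithelium genes. The summed signal of 14 rod genes was 41457 to 45379 in wildtype and, in knockout, 36644, 42369.8 and 40089. Of these 14 genes 2 had a positive log2 fold change, against 50.1% of all probe sets, and 0 passed the limma test. Across the 12 lists such counts ran from 0 of 4 skeletal muscle genes to 8 of 8 lens genes above the filter. Genes of the same list were read on the same arrays, so they are not independent. Sums over 11 progenitor genes were 3673 to 4106 in wildtype and 5006, 3612 and 4319.5 in knockout, and those over 10 microglia genes were 1125 to 1272 and 1877, 1039.6 and 1234. For 7 pigment epithelium genes the sums were 1166 to 3059.9 in wildtype and 3361, 2171 and 3028 in knockout. For the Actb control, taken as a sign of RNA quality, the 3′ over 5′ signal ratio was 1.44 to 1.64 on the wildtype arrays. On the knockout arrays it was 2.17, 1.69 and 1.90. For the Gapdh control the groups overlapped, with 0.98, 0.82 and 0.88 in wildtype and 1.18, 0.88 and 1.155 in knockout. The scaled 18S control signal was 2573 on wildtype array 2, 609 on knockout array 1 and 38.8 to 54.9 on the others. The part of these differences in the bipolar values was not tested.

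Of the listed markers, probe sets were named for 14 of 16 rod, 11 of 11 progenitor, 10 of 10 microglia and 7 of 9 pigment epithelium genes. Their means were above the filter for 14, 9, 7 and 6 of them, and the dim ones were Fgf15, Mki67, Aif1, Trem2, Cd68 and Rpe65. Ganglion and amacrine cells include other cells with Isl1, and the summed signals of their markers overlapped between the groups. The sum over 11 of 13 listed ganglion cell genes was 7742 to 8649.7 in wildtype and 8156 to 8606 in knockout. That over 11 of 12 amacrine genes was 5938 to 6461 in wildtype and 5986 to 6288 in knockout. No probe set was named for Pou4f1, Pou4f2 or Chat, so ganglion and cholinergic amacrine cells lacked these markers here. Of the 10 ganglion genes above the filter, 4 had positive log2 fold changes, against 50.1% of all probe sets. Among them Nefl had all knockout arrays (2691 to 2823) above the wildtype arrays (2075 to 2532), as in 4.05% of all probe sets. The ganglion marker Rbpms had the opposite sign (log2 fold change -0.26 ± 0.34, SE) and overlapping groups. It had 188, 152 and 140 in wildtype and 61.2, 187 and 181 in knockout. The group ranges did not overlap for 2 of the 12 lists. These were the sums over 6 horizontal cell genes, 1750.1 to 1890.2 in wildtype and 1905.5 to 2306 in knockout, and over 8 skeletal muscle genes, 474 to 609 and 338 to 418. Gja10 of the horizontal cell list and Myh3, Myh8, Tnnt3 and Mylpf of the muscle list were below the filter. Of all tested probe sets taken singly, 9.1% had groups that did not overlap. Among the lists with overlapping ranges, the lens list set wildtype array 3 apart from its own group. Its sum over 14 of 16 listed genes, 8 of them above the filter, reached 2457.5 there, against 391 on wildtype array 1 and 400 on wildtype array 2. Knockout arrays 1 to 3 had lens sums of 954, 579 and 1458. The part of this difference in the bipolar values was not tested either.

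**Figure D3:**
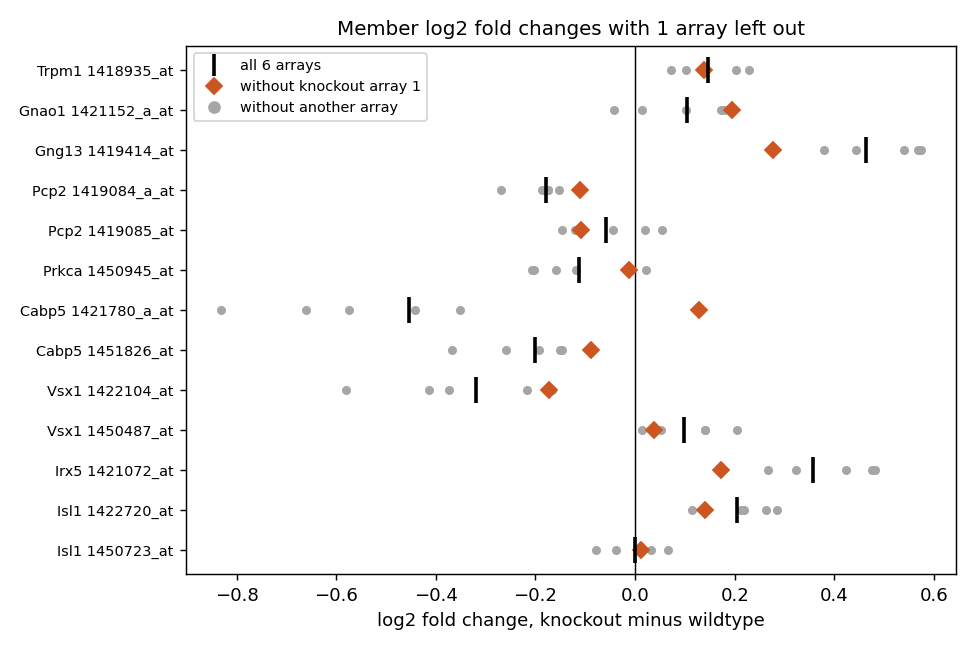
Log2 fold change, knockout minus wildtype, of the 13 tested bipolar probe sets with all 6 arrays (black bars), without knockout array 1 (orange diamonds) and without each other array (grey points). Leaving out knockout array 1 takes Gng13 from 0.46 to 0.28, Irx5 from 0.36 to 0.17 and Cabp5 1421780_a_at from -0.45 to 0.13.

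Further genes of the pathway were read from 3 lists, with the brightest probe set of each gene. Of 61 listed genes 40 had a probe set, 31 were tested, and 0 passed the limma test in either direction (0 also at an unadjusted p under 0.05). In 3 of the 17 alternative settings 1 or 2 of them reached an unadjusted p under 0.05, namely Nfib with array weights and without knockout array 1, and Gnb3 and Zfhx4 without knockout array 3. Positive values were found for 17 of the 31 and negative ones for 14, with a median log2 fold change of 0.05 against 0.00031 over all probe sets. The 95% interval lay within 1.5-fold for 18 of them and within 2-fold for 30. The genes named below are those with the largest moderated statistic in each list, and none of them passed.

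Partners of the mGluR6 cascade include the RGS proteins that end the Go signal and the Go beta subunit. Of 17 listed, 7 were tested, with 2 positive and 5 negative values between -0.11 and 0.16. Rgs7, a GTPase-activating protein for Go, gave 352, 290.2 and 269 on the wildtype and 330.1, 346 and 346 on the knockout arrays (log2 fold change 0.16 ± 0.16, SE). Rgs11, which acts with Rgs7, had 227, 194 and 129.8 against 161, 183 and 158 (log2 fold change -0.09 ± 0.21). Gnb3, the beta subunit that cones also use, had 1829.7, 1828 and 1728 in wildtype and 1424, 1350.1 and 2401 in knockout, so that knockout arrays lay on both sides of the wildtype range (log2 fold change -0.11 ± 0.20; -0.37 without knockout array 3).

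Among bipolar transcription factors, 15 of 22 were tested, with 9 positive and 6 negative values and a median of 0.08. Otx2, which drives bipolar and photoreceptor fate, had 2859.8, 3350.1 and 3044 in wildtype and 3289.5, 2798 and 3740.3 in knockout, with both group ranges overlapping. Zfhx4, a zinc finger homeobox factor, had 115, 106.5 and 130.5 against 40.4, 89.2 and 119.9, a log2 fold change of -0.50 ± 0.30 (SE) that was -0.15 without knockout array 1 and -0.76 without knockout array 3. Lhx4, a LIM homeobox factor of cone bipolar cells, had 268, 281 and 176 against 275, 343 and 283 (0.31 ± 0.21 on the log2 scale; 0.12 without wildtype array 3). Nfib, of the nuclear factor I family, had 213, 219 and 285 against 231, 333 and 330.1 (0.29 ± 0.20; 0.45 without knockout array 1), and its other tested probe sets did not pass either. Otx2 was named after its values were seen, because of the promoter motif.

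Of 22 receptors, channels and other markers, 9 were tested, with 6 positive and 3 negative values between -0.21 and 0.27. Scgn, the calcium-binding protein secretagogin of cone bipolar cells, had 626, 691 and 607 in wildtype and 721, 692 and 699 in knockout. The knockout arrays all lay above the wildtype arrays, by a narrow margin, with a log2 fold change of 0.13 ± 0.14 (SE). Gsg1 had 289, 305 and 306 against 237, 264 and 269.8, with all knockout arrays below wildtype and a log2 fold change of -0.21 ± 0.15. Non-overlap in either direction held for these 2 of the 31 genes and for 9.1% of all probe sets. Tacr3, the neurokinin 3 receptor found on cone bipolar cells, had 66.0, 84.5 and 102.8 against 82.6, 109.5 and 103.6. Its log2 fold change was 0.19 ± 0.21, and 0.059 without wildtype array 1. A dimmer Tacr3 probe set, 1450278_at, was below the filter and not tested. It had 45.7, 60.4 and 62.8 against 22.0, 69.5 and 29.2, with the opposite sign (log2 fold change -0.42) and overlapping groups.

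**Figure D4:**
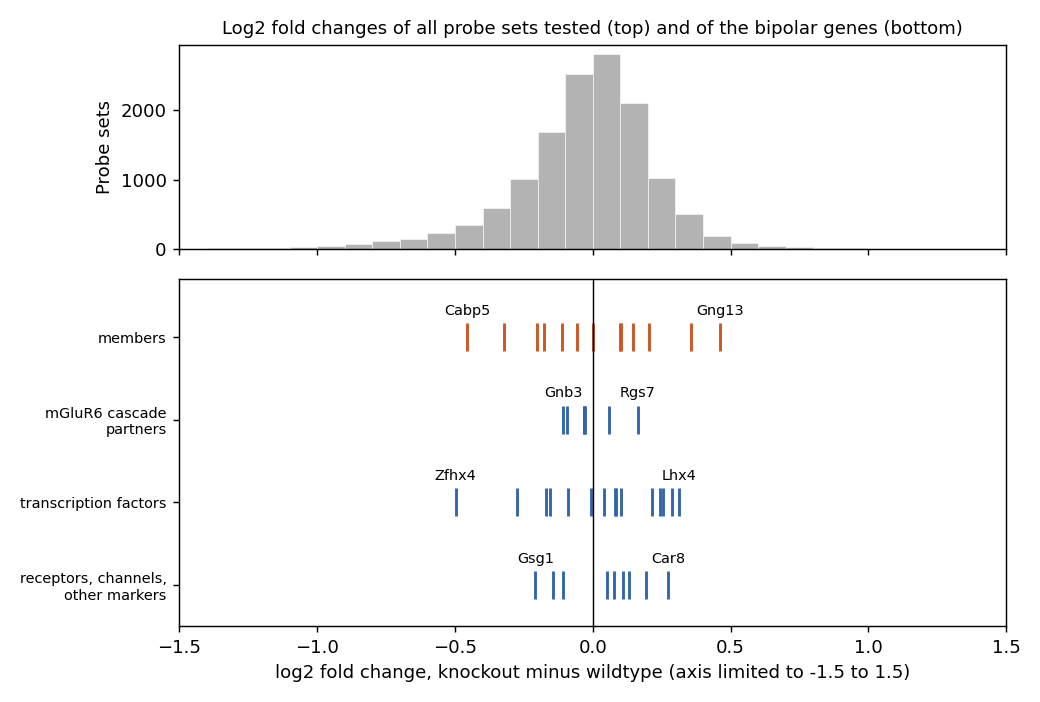
Log2 fold changes, knockout minus wildtype: the top panel counts all 13575 tested probe sets in bins of 0.1, and the bottom panel marks each tested bipolar probe set or gene, by list, with the lowest and highest named. Members run from -0.45 (Cabp5), with 5.69% of all probe sets at or below it, to 0.46 (Gng13), with 1.64% at or above it.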

How the data were processed

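Total retinal RNA of 3 wildtype and 3 knockout samples was hybridised, per the labels' protocols, to Affymetrix arrays. The deposited table gives 1 linear intensity for each probe set on each array, which the authors computed with MAS5, as the submitters' processing notes name it. Version, scaling target and detection calls are not given in the sources used here. Groups came from the titles.

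After removal of 64 control probe sets, arrays were brought to 1 common trimmed mean (2% trimmed from either tail). Before log2, a pseudocount equal to the 20th percentile of the signals (19.1) was added, which understates changes of dim probe sets. Probe sets with a mean above the 40th percentile (62.4) were tested with limma 3.58.1 (R 4.3.3), using lmFit, eBayes with an intensity trend and Benjamini-Hochberg adjustment over 13575 probe sets. The fit was tested on simulated data. Symbols came from the platform annotation, updated through Entrez identifiers: 20380 probe sets had 1 symbol, 691 several and 1555 none. Promoter sequences are from RefSeq.

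Members and lists were chosen with earlier results of these data known. Every member probe set is named, and of each pathway list the 3 genes with the largest moderated statistic. The alternatives changed the scaling, the pseudocount, the filter or the variance model, weighted the arrays, blocked on replicate number, or left out single arrays.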

Additional observations from a re-analysis of the deposited data

How the results depend on the processing

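No bipolar member and no pathway gene passed the limma test in any of the 17 alternatives run; the setting without wildtype array 2 and knockout array 1 was chosen after seeing the data, for their high 18S control signals, and the others were planned. The planned removal of arrays that stand apart is the same fit as without knockout array 1. The smallest member adjusted p, 0.999 in the reported fit, ranged over the alternatives down to 0.63, without knockout array 2. The count over all probe sets, 2 as reported, was 10 with no rescaling, 1 with no filter, 4 without wildtype array 2 and knockout array 1, and 0 to 4 with 1 array left out (4 when wildtype array 2 was dropped, 0 when wildtype array 3 was, and 1 for knockout array 2 or 3). Fewer arrays, or more probe sets where the filter was dropped, are part of these settings; otherwise the cause was not tested. With the replicate number as a block (replicate block), 2 probe sets and 0 members passed (smallest member adjusted p = 0.89). Residuals of arrays with the same number had correlations of 0.18, -0.03 and 0.08. With 3 arrays a group they cannot tell if arrays of the same number shared a batch, which the labels do not state.

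Signs turned in 20 of 217 cases for the members and 8 of 151 for the named pathway genes. With no rescaling the median of all tested probe sets was 0.29 and that of the members 0.31, and the log2 fold changes became 0.12 and 0.25 for Pcp2, 0.17 for Prkca, 0.096 for Cabp5 1451826_at, 0.31 for Isl1 1450723_at, 0.21 for Gnb3, 0.20 for Rgs11 and 0.086 for Gsg1. With median scaling Pcp2 1419085_at had 0.035 and Isl1 1450723_at 0.093, as did the member median. With array weights Vsx1 1450487_at had -0.0034, Isl1 0.0058 and Gnb3 0.0061. Without wildtype array 2 and knockout array 1, Cabp5 1421780_a_at had 0.012, Isl1 0.017 and Gnb3 0.019. With 1 array left out, values ranged from -0.15 to 0.055 for Pcp2 1419085_at, -0.21 to 0.022 for Prkca, -0.041 to 0.19 for Gnao1, -0.83 to 0.13 for Cabp5 1421780_a_at, -0.078 to 0.067 for Isl1 1450723_at, -0.37 to 0.043 for Gnb3 and -0.30 to 0.062 for Rgs11. The member median ranged from -0.078 to 0.067 in those settings. In every setting that tested them, Gng13, Irx5, Trpm1 1418935_at and Isl1 1422720_at were positive and Vsx1 1422104_at was negative (-0.58 to -0.018). Dim probe sets, without detection calls, limit what can be said of the 5 untested ones. Of the 13 tested ones, 9 stayed in with the stricter filter. It left out Trpm1 1418935_at, Gng13, Cabp5 1421780_a_at and Vsx1 1422104_at, so the members with the highest and the lowest log2 fold change are among the dimmer ones.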
